A study of Mus musculus with 6 samples.

Results

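The transcriptome of wild-type (WT) activated hair germ cells was described from 2 RNA sequencing libraries, WT replicates 1 and 2, of the 6 libraries in the series. The members were taken by sample title, and the levels are the deposited TPM (a read number divided by gene length and scaled to the same total in each library) of all 46517 listed genes, spike-in rows left out. The WT mice carried Sox9-CreER, a tamoxifen-inducible recombinase under Sox9 control, and R26-lox-stop-lox-YFP, a yellow fluorescent reporter that recombination switches on. They were 60 days old, of mixed sex by label, and had been depilated on the back 3 days earlier. The cells came from back skin and were sorted on YFP together with 4 surface proteins: P-cadherin, Sca-1, CD34 and integrin b1. The other 4 libraries, 2 of LEF1cKO (Lef1fl/fl) and 2 of LEF1_TCF7dKO (Lef1fl/fl;Tcf7-/-), share the driver, the reporter, the age and the depilation, and are used below for 1 comparison only. The WT mice are thus not free of alleles, and no label says whether the libraries came from separate mice, so the spread between them may be technical.

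The hair germ is a small cluster of epithelial progenitors at the base of the resting hair follicle, between the bulge stem cells above it and the dermal papilla below. Plucking the hair starts a new growth phase, in which the hair germ is the first epithelial compartment to divide, in response to Wnt, FGF and TGF-beta signals and to BMP inhibitors. It then makes Sonic hedgehog and grows down to form the matrix, whose progeny become the inner root sheath and the hair shaft. As basal keratinocytes, its cells hold a keratin network of K5 and K14, and rest on a basement membrane through integrins.

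The 2 WT libraries summed to 52935357 and 63220022 expected counts, against 40480694 to 63220022 over all 6. Below, each pair of values is replicate 1 followed by replicate 2, and every level is in TPM. With 2 libraries no test between genes was made: 1 gene is called above another only where both of its values exceed both of the other's. In all, 14267 genes reached 1 TPM in both libraries, 12036 of them among the 21547 protein-coding genes listed. Another step up, 8908 genes reached 10 TPM, 1479 reached 100 TPM and 148 reached 1000 TPM in both. The 10 highest genes held 8.26% ± 0.342 (SD, n = 2) of all TPM, the 100 highest 30.8% ± 0.25 and the 1000 highest 64.4% ± 0.0348. Over all listed genes log2(TPM + 1) had a Pearson r of 0.992 between the libraries, which share library preparation and annotation, and 96 genes stood in the 100 highest of both. Of the listed genes, 31051 were under 1 TPM in both libraries, 18323 of them at 0, and all entered r. The median gene at 1 TPM or more differed 1.07-fold between the libraries.

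**Figure D1:**
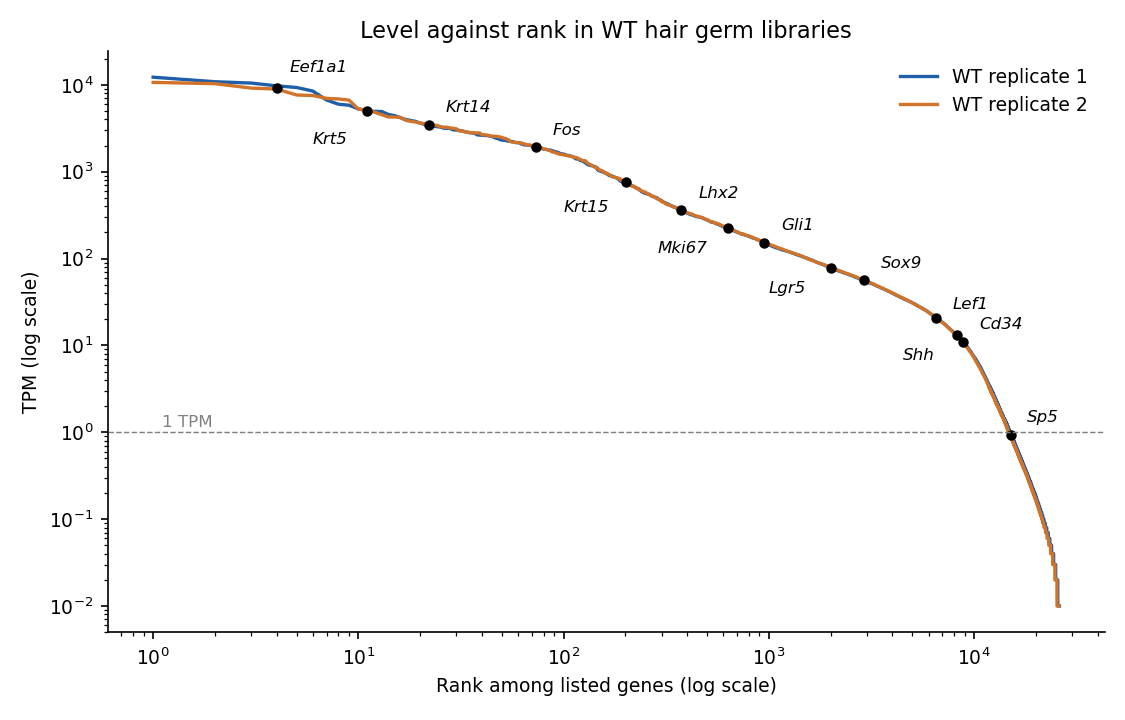
TPM against rank among the listed genes in each WT library, both axes on log scales; black points mark named genes at their mean TPM. The 2 curves nearly overlie, and the named genes run from Eef1a1 (mean 9138) down to Sp5 (mean 0.935).

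Among protein-coding genes, transcripts of mitochondrial energy supply and of protein synthesis stood highest. Of the 100 highest entries, 72 were protein-coding, 19 were pseudogenes, 6 were annotated as miRNA and 1 as rRNA. The ribosomal RNA Rn18s-rs5 ranked 8 at 5989 and 6887, and Gm15662, with no matched annotation, ranked 9 at 5834 and 6997. Short features also ranked high, as Gm25732 (2851 and 3429) did on an effective length of 10 bases. The mitochondrially encoded mt-Atp8, a subunit of ATP synthase, had the highest mean at 12261 and 10680.4, on an effective length of 154 bases. It overlapped with mt-Co1, a subunit of cytochrome oxidase, at 10873 and 10328. The highest nuclear protein-coding gene was Eef1a1, the elongation factor that brings aminoacyl-tRNA to the ribosome, at 9331 and 8946. Next among nuclear protein-coding genes came Ptma, a small acidic chromatin protein of dividing cells, at 6693 and 6671, Apoe, a lipid carrier, at 5051 and 5271, and Krt5 at 4936 and 5128, with Apoe and Krt5 overlapping. The 30 highest entries also held Rpl13a, Rplp1, Rpl41, Rps2, Rplp0 and Rpl23a of the ribosome, from 4428 and 4228 for Rpl13a down to 3156 and 2954 for Rpl23a. The metal-binding Mt2 stood among them at 3796 and 3438, the prolyl isomerase Ppia at 3895 and 3624, Tpt1 at 3504 and 3193, Krt14 at 3410.0 and 3578 and the actin gene Actg1 at 2886 and 3119.9. As a class, the 85 ribosomal protein genes held 12.9% ± 0.215 of TPM and the 37 mitochondrially encoded genes 5.20% ± 0.066. Both classes were taken by gene symbol, which left Rps3a1 (1309 and 2420.1) and Rpl36al (558 and 552) out of the ribosomal class. Of the 85, 82 reached 10 TPM in both libraries and 79 reached 100, while Rpl39l (1.41 and 0.68), Rpl3l (0.06 and 0.04) and Rpl10l (0 counts) were far lower. Their median was 1494, beside 3.04 over all protein-coding genes.

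Some of the highest entries share their sequence with another gene, so that the deposited level of each depends on how reads were divided. Gm28661, annotated as an unprocessed pseudogene on chromosome 1, ranked 3 at 10494 and 9185. Its mitochondrial counterpart mt-Co2, which encodes cytochrome oxidase subunit 2, was listed at only 478 and 1129.7. The 2 are shown from their first base because a read of 51 bases from this stretch matches both alike, and 0 of the 102 bases shown differ. Capitals mark the first 51 bases, and positions are on GRCm38 (mt-Co2 at chrM:7013-7114, plus strand, and Gm28661 at chr1:24615464-24615565, minus strand).
mt-Co2: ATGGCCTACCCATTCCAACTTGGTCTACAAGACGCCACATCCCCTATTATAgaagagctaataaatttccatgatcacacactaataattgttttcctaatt
Gm28661: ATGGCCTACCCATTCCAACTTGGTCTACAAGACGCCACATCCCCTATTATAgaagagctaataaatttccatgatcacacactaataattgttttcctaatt
All 631 windows of 51 bases in Gm28661 occur in mt-Co2. The same held for the 628 windows of Gm10925, a copy of mt-Atp6, and the 733 windows of Gm28437, a copy of mt-Co3, while 429 of the 442 windows of Gm29216 occur in mt-Co1. With the counts of gene and copy added at the length of the gene, mt-Co2 came to 10923 and 10271, and the copy held 95.6% and 89.0% of that. For mt-Atp6 the sum was 11048 and 9610.3 and for mt-Co3 9140 and 8174, against 1348 and 2104 and 665 and 535 as listed. For mt-Co1 the sum was 12436 and 11668, the copy holding 12.6% and 11.5% of it. Because these windows are shared, the levels of mt-Co2, mt-Atp6, mt-Co3 and their copies are uncertain when read singly. The windows take reads to be single and 51 bases long, 1 more than the gap between gene length and effective length; the labels give read pairs, and no source used here says which reads were quantified.

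Processed pseudogenes, copies of messenger RNAs pasted back into the genome, showed the same pattern for nuclear genes. Pseudogenes of all kinds held 11.3% of TPM, and 104 had a mean of 100 TPM or more. Of these, 102 matched a listed protein-coding gene at 90% identity or more over at least 50% of their length, 88 of them at 99% or more. For 51 of the 104, the relative had a ribosomal protein symbol of the class above. Rpl5 was listed at 82.1 and 84.9 and Rpl12 at 133 and 164, far under the class median. With the counts of its copy added, Rpl5 came to 1468 and 1442, 94.4% and 94.1% of it on the copy, and Rpl12 to 1457 and 1529, 90.9% and 89.3% of it on the copy. Single ribosomal protein genes, and Ppia, Tpt1, Hspa8 and Gapdh, which have such copies as well, are uncertain for this reason.

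The libraries differed 2-fold or more in log2(TPM + 1) at 77 of 9142 genes with a mean of 10 TPM (0.842%), 50 of them higher in replicate 1 and 27 in replicate 2. Only 26 of the 77 were protein-coding. Of the 51 others, 41 matched a protein-coding relative. The pseudogene Rps3a2 was listed at 1009 and 3.37 and its relative Rps3a1, a protein of the small ribosomal subunit, at 1309 and 2420.1. Gm15772 was listed at 0 and 961 and its relative Rpl26 at 2313 and 1340.1. In each of these pairs the copy was high in the library where the parent gene was low. Coding genes far apart between the libraries included Baiap2l1, which shapes actin-rich membrane, at 99.4 and 6.16, and the splicing factor Cwc22 at 169 and 32.9, both higher in replicate 1. Dusp2, a phosphatase of MAP kinases, was higher in replicate 2 at 3.63 and 19.3.

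**Figure D2:**
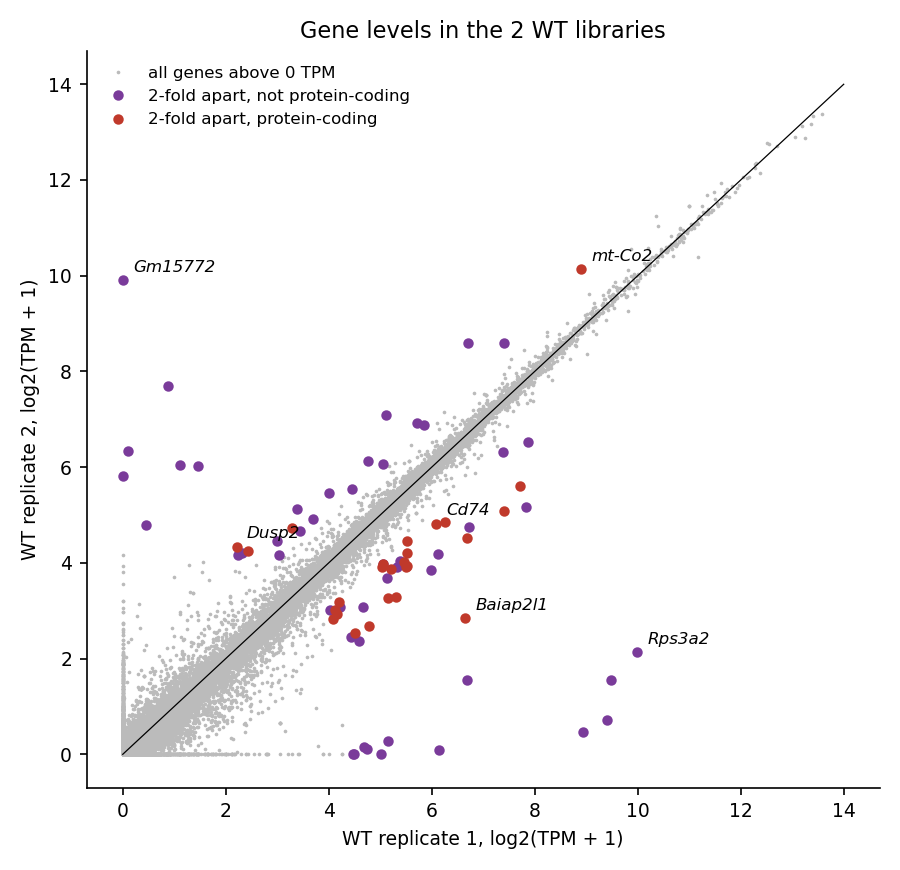
log2(TPM + 1) of each gene above 0 TPM in WT replicate 1 (horizontal) and replicate 2 (vertical), with the line of equal level. The 77 genes 2-fold apart are coloured, 26 protein-coding in red and 51 others in purple; Rps3a2 and Gm15772 lie far from the line on opposite sides.

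The genes behind the sort were all present. Itgb1, which encodes integrin b1, stood at 167 and 155 and Cdh3, which encodes P-cadherin, at 134 and 130.1. Sox9, a transcription factor of follicle stem cells whose locus drives the recombinase, stood at 52.3 and 59.6. Ly6a, which encodes Sca-1, a surface protein of the upper follicle and epidermis, was lower at 26.5 and 14.7, and Cd34, a marker of the bulge, lower still at 13.5 and 8.72. The 5 genes did not overlap between neighbours in this order. The labels name these markers without saying which were selected for and which against. The label gives the sex as mixed. Xist, made by the inactive X, stood at 314 and 309, while the Y-linked Ddx3y, Eif2s3y, Kdm5d and Uty were each under 0.5 TPM in both libraries.

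Hair germ genes were read at moderate to high levels. Of 25 on the list, 23 reached 1 TPM in both libraries, 21 reached 10 and 8 reached 100, with a median of 32.1 beside 3.04 over all protein-coding genes. The bulge and upper follicle lists had higher medians, 51.1 and 36.9. The highest was Krt17, a keratin of follicle and activated epithelium, at 2342 and 2435. Lhx2, a homeobox factor of follicle stem cells and germ, stood at 337 and 381 and overlapped with Cux1 at 339.7 and 331. Gli1 and Ptch1, targets of hedgehog signalling, were at 143 and 161 and 131 and 161 and overlapped with each other. Below them came the cyclin Ccnd1 at 117 and 119, Dlx3 at 123 and 102, the stem cell receptor Lgr5 at 82.1 and 73.7 and Msx2 at 60.4 and 57.4. Lower in the list, the Wnt effectors Tcf7 and Lef1 were at 26.9 and 36.01 and 21.4 and 20.4, with Tcf7 above Lef1 in both libraries, and Foxi3, a factor of ectodermal appendages, at 17.3 and 31.7. At the low end, Bmp2 stood at 3.33 and 4.28, Sp5, a Wnt target, at 0.69 and 1.18, and Fgf20 had 0 counts in both, which allows up to 0.0918 and 0.0779 TPM (3 counts, counting error only).

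Bulge genes were read in the same libraries at a median of 51.1, and 23 of 25 reached 1 TPM in both. Krt15, a keratin of quiescent follicle stem cells, stood at 760.4 and 745, Postn, a matrix protein, at 242 and 278 and Col17a1, a hemidesmosomal collagen, at 227 and 219. Id3 (234 and 207), Tbx1 (152 and 163) and Itga6 (133 and 140.4) followed. Nfatc1, which keeps bulge cells quiescent, was lower at 16.9 and 17.9, and so were the Wnt-responsive repressors Tcf7l1 at 32.2 and 33.7 and Tcf7l2 at 23.9 and 24.2. Genes of germ and bulge were thus read side by side, Krt15 and Lhx2 high, Cd34 and Nfatc1 low. In RNA from many cells, a smaller share of cells of a kind and less RNA in each cannot be told apart.

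Keratins followed a steep order. The 51 keratin genes held 1.38% ± 0.00487 of TPM, and 3 of them, Krt5 (4936 and 5128), Krt14 (3410.0 and 3578) and Krt17 (2342 and 2435), held 77.7% and 80.6% of that. No values overlapped between neighbours in the order Krt5, Krt14, Krt17, Krt15, Krt79, Krt10, Krt1. Krt79, of the upper follicle and its duct, stood at 688 and 622. Krt10 and Krt1, the keratins of differentiating epidermis, were at 587 and 437 and 367 and 315, higher in replicate 1 for both. Krt6a and Krt16, of the companion layer and wounded epidermis, were at 157 and 166 and 114 and 94.5. Of the root sheath keratins, Krt28 reached 175 and 146, well above Krt25 (22.4 and 13.3), Krt27 (16.3 and 12.3), Krt71 (16.04 and 9.40) and Krt73 (6.22 and 6.81), while Krt26, Krt72 and Krt74 were under 1 TPM. Of the 18 hair shaft genes measured, 9 reached 1 TPM in both libraries and 2 reached 10: Lap3, an aminopeptidase, at 295 and 326 and Hoxc13 at 39.2 and 39.9. Among the hard keratins of the shaft, Krt35 stood at 6.60 and 4.98, Krt83 at 2.59 and 2.80 and Krt32 at 1.62 and 1.39, the others measured were under 1 TPM, and 55 of 57 keratin-associated protein genes were under 1 TPM in both libraries. Krt8 (0.46 and 0.25) and Krt18 (0.51 and 0.62), of simple epithelium, were also under 1 TPM.

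**Figure D3:**
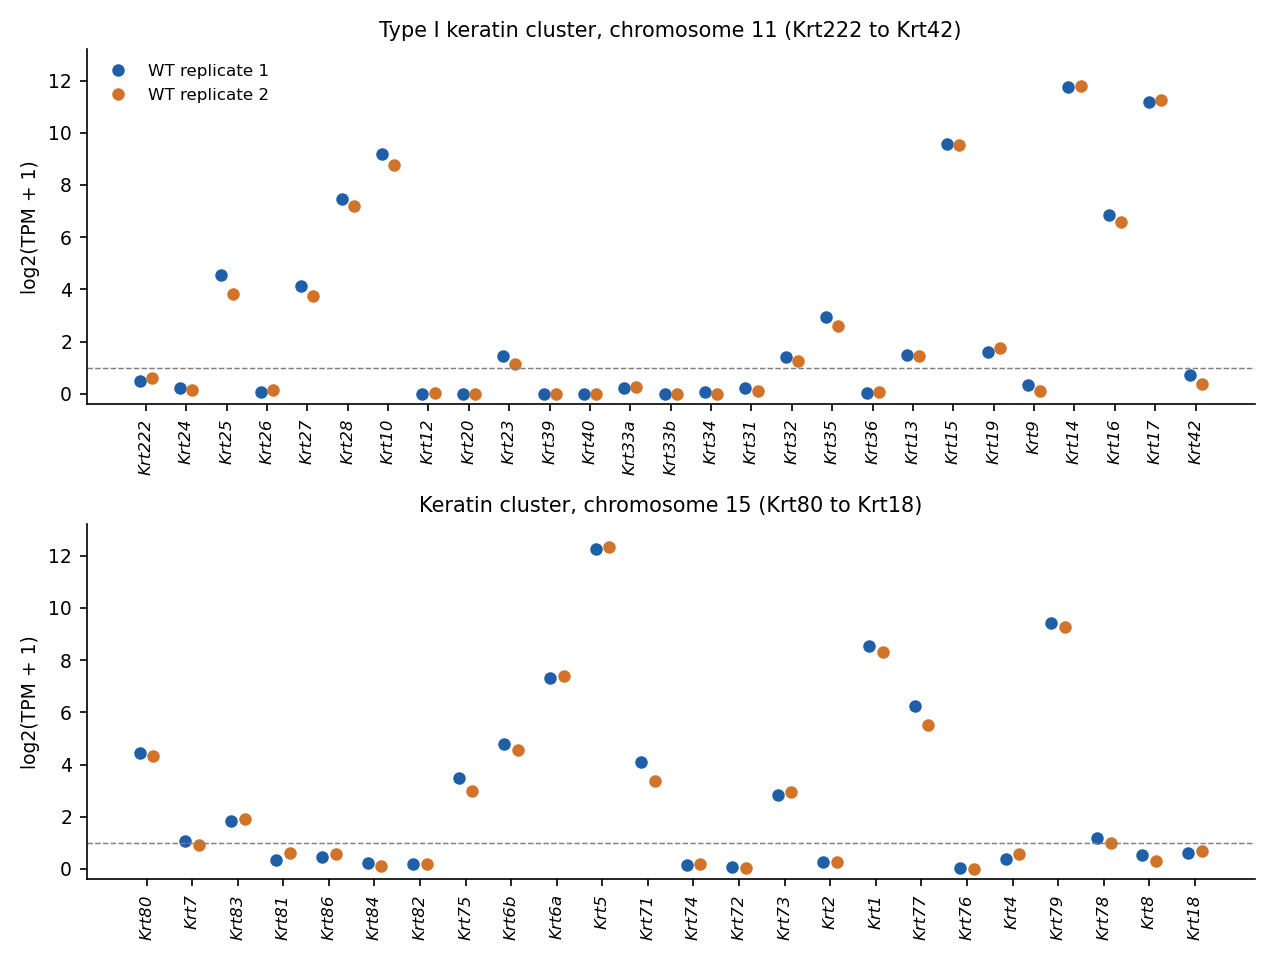
log2(TPM + 1) of the 27 keratin genes of the chromosome 11 cluster (top) and the 24 of the chromosome 15 cluster (bottom), in chromosomal order, WT replicate 1 in blue and replicate 2 in orange; the dashed line is 1 TPM. Krt14 and Krt17 on chromosome 11 and Krt5 on chromosome 15 stand highest, while genes a few places away lie near 0.

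The 27 keratin genes of the chromosome 11 cluster, which holds type I keratins, summed to 7443 and 7475. The 24 of the chromosome 15 cluster, which holds the type II partners and Krt18, summed to 6311 and 6347. Type I and type II keratins pair in equal numbers in filaments, and the chromosome 11 sum was the higher in both libraries. In the plot of keratins by chromosomal order, genes a few places apart differed by orders of magnitude, as Krt14 and Krt9 (0.26 and 0.08) did.

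Promoters were read from RefSeq (GRCm38.p6, 250 bases before to 50 after the start) for 15812 of 21529 protein-coding symbols (73.4%), and a gene counted as holding a motif where any of its rows did. In the medians below, the CpG ratio of a gene is the highest over its rows. The TATA box was searched as TATAAA on the strand of the gene, starting 40 to 20 bases before the start. It stood there in 13 of 35 keratin promoters (37.1%) and in 3.05% of all promoters. CpG content followed level: the median ratio of observed to expected CpG was 0.246 for the 6527 genes under 1 TPM, 0.67 at 1 to 10 TPM, 0.824 at 10 to 100, 0.851 at 100 to 1000 and 0.953 for the 68 genes at 1000 TPM or more. Keratin promoters had a median of 0.285. At the start site itself, a C followed by 4 pyrimidines within 5 bases stood in 30 of 63 ribosomal protein promoters (47.6%) and in 21.8% of all, the kind of start known from messages of the translation machinery. The 4 promoters below are shown for this contrast, a keratin with no TATAAA, a keratin with it, an immediate early gene with it and a housekeeping gene without it, with TATAAA in capitals.
Krt5: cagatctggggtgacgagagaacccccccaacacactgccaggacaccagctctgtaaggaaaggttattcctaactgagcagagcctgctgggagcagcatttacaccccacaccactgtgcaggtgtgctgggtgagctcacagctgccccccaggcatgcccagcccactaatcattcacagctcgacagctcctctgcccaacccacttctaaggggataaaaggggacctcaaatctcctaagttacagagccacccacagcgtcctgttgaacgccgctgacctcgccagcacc
Krt10: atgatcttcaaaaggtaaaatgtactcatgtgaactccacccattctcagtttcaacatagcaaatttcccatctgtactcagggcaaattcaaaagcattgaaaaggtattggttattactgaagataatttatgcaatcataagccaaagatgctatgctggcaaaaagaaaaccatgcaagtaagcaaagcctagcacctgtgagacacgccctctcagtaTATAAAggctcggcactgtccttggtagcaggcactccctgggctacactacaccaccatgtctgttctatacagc
Fos: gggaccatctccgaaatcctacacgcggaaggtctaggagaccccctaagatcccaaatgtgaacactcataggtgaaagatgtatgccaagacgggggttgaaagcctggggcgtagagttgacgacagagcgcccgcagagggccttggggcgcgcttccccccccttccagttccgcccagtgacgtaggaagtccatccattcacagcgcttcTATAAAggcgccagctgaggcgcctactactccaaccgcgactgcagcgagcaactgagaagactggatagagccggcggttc
Eef1a1: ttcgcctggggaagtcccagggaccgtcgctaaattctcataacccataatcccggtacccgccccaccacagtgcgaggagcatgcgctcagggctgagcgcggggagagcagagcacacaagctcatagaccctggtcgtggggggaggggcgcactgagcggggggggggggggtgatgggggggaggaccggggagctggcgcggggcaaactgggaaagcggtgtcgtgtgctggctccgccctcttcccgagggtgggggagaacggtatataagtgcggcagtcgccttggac
Krt5 (chr15:101712856-101713155, minus strand) had a CpG ratio of 0.251 and Krt10 (chr11:99389315-99389614, minus strand) 0.154, with TATAAA from base -26. Fos (chr12:85473640-85473939, plus strand) had 0.775 with TATAAA from base -33, and Eef1a1 (chr9:78481675-78481974, minus strand) 0.697. Only the exact letters TATAAA were searched, so close variants, such as ataaaa in Krt5 and tatataa in Eef1a1, did not count. Krt5 and Eef1a1 are thus not shown to lack a TATA-like box. A match here is a description of letters and no evidence that a factor binds.

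Transcription factors of the follicle list were broadly read: 96 of 109 reached 1 TPM in both libraries, 80 reached 10 and 26 reached 100. The top of the list was immediate early, Fos at 1809.9 and 2025, Jun at 758 and 933, Atf3 at 737 and 882 and Junb at 685 and 804, with Egr1 at 649.9 and 734 and Fosb at 301 and 427. Beyond these, Lhx2 and Cux1 were followed by Trp63, the keeper of basal keratinocyte fate, at 262 and 255 and Vdr, the vitamin D receptor needed for hair cycling, at 256 and 232. Foxn1, needed for hair shaft differentiation, was at 1.30 and 1.51, and Sp8, Pitx1 and Foxc2 were at or under 0.1 TPM. Of 19 Sox genes, Sox4 (109 and 113) was highest, Sox13 (76.5 and 93.4) next and Sox9 below both.

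Of the Wnt pathway, receptors were read far more widely than ligands. Of 19 Wnt ligands, 9 reached 1 TPM in both libraries, against 14 of 15 receptors. Wnt5a (38.9 and 40.6), Wnt4 (37.9 and 39.8) and Wnt6 (38.03 and 38.9) were highest and overlapped with their neighbours in this order, followed by Wnt10a at 21 and 23.4, Wnt7b at 9.77 and 11.8 and Wnt10b at 7.45 and 9.07. Ryk, a receptor for non-canonical Wnts, was the highest receptor at 142 and 139, followed by Fzd1 at 129.6 and 119 and Fzd7 at 94.9 and 94.2, and the co-receptors Lrp5 and Lrp6 were at 59.8 and 67.2 and 39.99 and 39.8. None of the 4 R-spondins, the ligands of the Lgr receptors, reached 1 TPM in both libraries, while Lgr4 stood at 98.1 and 96.5, Lgr5 at 82.1 and 73.7 and Lgr6 at 31.3 and 42.5. Among inhibitors and feedback genes, Sostdc1, a BMP and Wnt antagonist, stood at 86.2 and 95.1, Sfrp1, which binds Wnts, at 91.6 and 74.8, and the feedback genes Apcdd1 and Axin2 at 57.6 and 62.97 and 25.8 and 27.9. Dkk1 (0.06 and 0.08) was near 0 and Dkk4 had 0 counts.

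Hedgehog genes showed the ligand Shh below its targets Ptch1 and Gli1. Shh stood at 12.5 and 13.8 and Dhh at 1.84 and 1.85, with Ihh under 1 TPM. The receptor and target Ptch1 (131 and 161), the effector Gli1 (143 and 161) and the transducer Smo (128 and 135) each stood above Shh in both libraries. In the order Gli1, Ptch1, Smo each overlapped with its neighbour, while Gli1 was above Smo in both. Gli2 was at 28.8 and 34.2 and the inhibitor Hhip at 3.46 and 4.65. All 13 members at a mean of 1 TPM or more were higher in replicate 2, beside 49.2% of all genes at that level.

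BMP and TGF-beta genes were at modest levels, with a median of 7.12 over 34 members. Bmp7 was the highest BMP ligand at 42.5 and 55.5, followed by Bmp4 at 11.5 and 13.9, and the receptor Bmpr1a stood at 71.1 and 67.9. Tgfb3 (60.98 and 72.3) and Tgfb1 (48.6 and 51.8) were the highest TGF-beta ligands, above the receptors Tgfbr1 (20.3 and 19.1) and Tgfbr2 (20.4 and 18.6). The inhibitor Fst, follistatin, stood at 48.9 and 53.3, and Nog, noggin, at 0.97 and 1.04. In the Notch pathway the ligands Jag2 (141 and 151) and Jag1 (81.2 and 90.7) were higher than the receptor Notch1 (48.1 and 57.9), with Hes1, the main target, at 87.5 and 64.3. For FGF, 2 of 10 ligands reached 1 TPM in both libraries, Fgf2 (17.4 and 16.8) and Fgf1 (2.18 and 2.07), while Fgfr2 (278 and 315), Fgfr1 (139 and 148) and Fgfr3 (135 and 125) were each above 100. Fgf7 (0.35 and 0.24) and Fgf10 (0.24 and 0.09), dermal ligands of Fgfr2, were under 1 TPM. The opposite held for PDGF, where Pdgfa stood at 85.5 and 109.7 and 0 of 2 receptors reached 1 TPM in both libraries. In the EGF family the ligand Epgn stood at 49.8 and 58.8 and the receptor Egfr at 61.9 and 57.1, overlapping in level. Eda and its receptor Edar, of appendage growth, stood at 12.5 and 9.78 and 13.8 and 15.9.

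**Figure D4:**
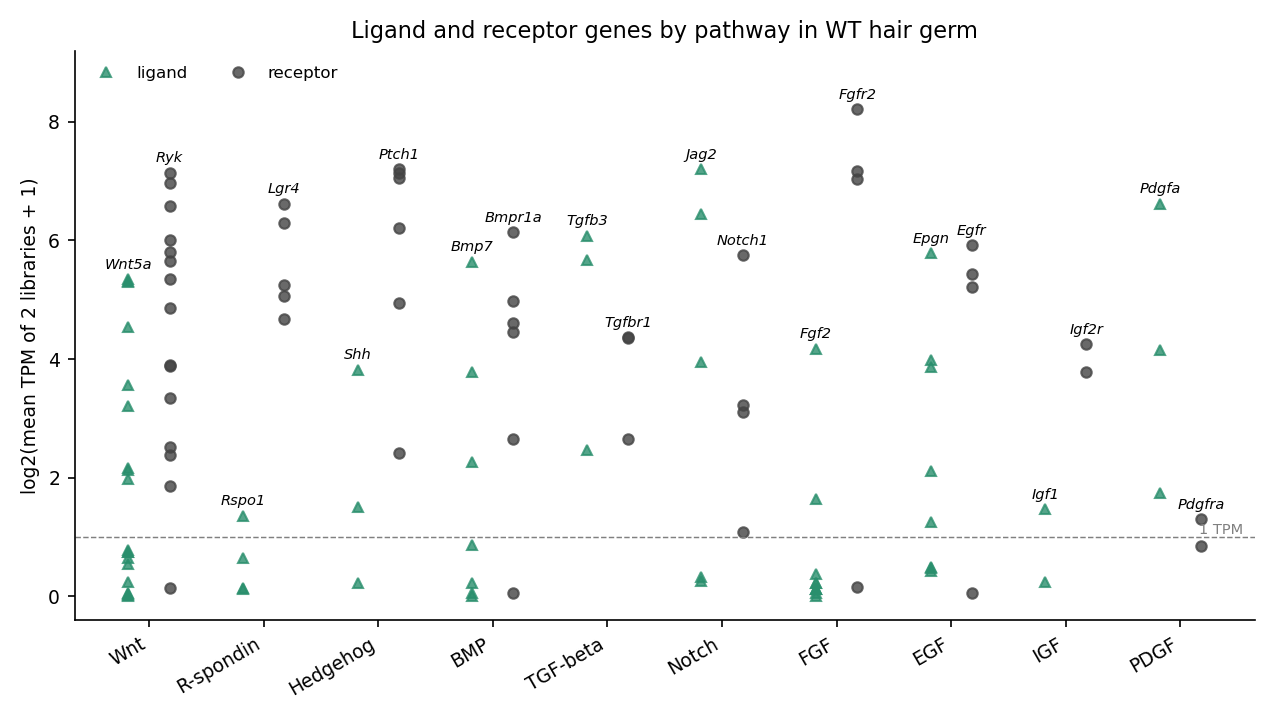
log2(mean TPM of the 2 WT libraries + 1) of each ligand (triangle) and receptor (circle) gene by pathway, the highest of each named; the dashed line is 1 TPM. The highest R-spondin, hedgehog and FGF receptors stand above the highest ligands, and Pdgfa above both of its receptors.

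Genes of DNA replication and mitosis were read at high levels. All 40 genes of the mitosis list reached 10 TPM in both libraries, with a median of 95.4 (SD between the libraries' medians 1.84). Top2a, which untangles DNA, stood at 577 and 559, the mitotic kinase Cdk1 at 303 and 284, its cyclin Ccnb1 at 254 and 219, Cdc20 at 239 and 223, Mki67 at 218 and 227 and Ube2c at 233 and 203. Of 40 DNA replication genes, 39 reached 10 TPM in both libraries, with a median of 85.3: Pcna, the sliding clamp, at 456 and 471, Tk1 at 239 and 243, Uhrf1 at 219 and 242 and Mcm6 at 195 and 216. The share of cells in each phase cannot be read from such levels. Of the regulators, Cdk4 was highest at 830.0 and 841, Ccnd2 (268 and 243) was above Ccnd1, and the inhibitors Cdkn1a (85.2 and 90.8) and Cdkn1b (82.8 and 75.9) stood well above Cdkn2a (0.68 and 0.15) and Cdkn2b (3.27 and 2.68). The 2 lists differed in which library was higher: 31 of 40 mitosis genes in replicate 1 and 35 of 40 replication genes in replicate 2, beside 50.5% and 49.2% of all genes at a mean of 1 TPM, by a median of 0.06 and -0.08 on the log2 scale.

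Immediate early genes, which are made within minutes of a stimulus, had a median of 290.4. All 27 reached 10 TPM in both libraries and 21 reached 100, with Nr4a2 lowest at 10.2 and 12.7. Fos was highest, followed by the heat shock gene Hspa1b at 1176 and 1520.4, Jun, the nuclear receptor Nr4a1 at 763 and 873, Atf3 and Hspa1a at 698 and 836. Replicate 2 was higher for 25 of 27 (background 49.2%), summing to 13073 against 10940 in replicate 1. Of their promoters, 22 were found, 1 of them with TATAAA in the window and 3 with TGACGTCA, the element bound by CREB and ATF factors (2.68% of all promoters).

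Chaperones, glycolysis and translation factors were high as groups. All 24 chaperone genes reached 100 TPM, led by Ppia, Hspa8 (1817 and 2041) and Hsp90ab1 (1777 and 1873). All 20 translation genes reached 100 TPM, with a median of 824, Eef1a1, Tpt1, Rack1 (1885 and 1819) and Eef2 (1809.6 and 1883) highest. Of 24 glycolytic genes, 11 reached 100 TPM, with Gapdh at 1203 and 1295, Pkm at 553 and 607 and Ldha at 426 and 462, and the glucose carrier Slc2a1 at 60.7 and 72.1. Nuclear genes of the respiratory chain numbered 77, all at 10 TPM or more in both libraries, Atp5b highest at 1494 and 1560.2.

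Adhesion and structure genes included the main genes of a basal epithelium. Of 29 basal adhesion genes, 28 reached 1 TPM and 14 reached 100, with Krt5 and Krt14 first, Cd9, a tetraspanin, at 776 and 739 and Bcam, a laminin receptor, at 485 and 498. Basement membrane genes Col4a1 (213 and 202) and Lama5 (189 and 215) were high, while Nid1 was at 4.51 and 2.59. Junction genes were led by Perp (868 and 871), Ctnnb1 (810.5 and 859) and the gap junction gene Gja1 (636 and 634), with the desmosomal Dsp at 280.0 and 284. Of the classical cadherins, Cdh3 was above Cdh1 (126 and 127) in both libraries. Cldn7 (0.34 and 0.25) and Cldn23 (0.43 and 0.37) were under 1 TPM. In the cytoskeleton Actg1, Tuba1b (2016 and 2006), Stmn1 (1551 and 1557) and Actb (1397 and 1459) were highest, 29 of 36 reaching 100 TPM.

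The epidermal differentiation and sebaceous lists had lower medians, 7.96 and 9.72, than the basal adhesion list at 104, while single differentiation genes stood above many basal ones. Of 24 epidermal differentiation genes, 18 reached 1 TPM and 6 reached 100: Krt10, Krtdap (387 and 361), Dmkn (358 and 331), Krt1, Calm4 (230.1 and 161) and Sbsn (204 and 159), the early suprabasal genes. The late cornification genes Lor (8.85 and 6.05), Flg (6.59 and 5.55) and Ivl (8.99 and 9.29) were under 10 TPM, and Krt2 under 1. Upper follicle genes were read widely, all 13 at 1 TPM or more in both libraries, with a median of 36.9. Krt79, Ly6d (293 and 256), the antimicrobial Defb6 (307 and 239) and Lrig1 (260.4 and 254) were highest. Of the 16 sebaceous genes, 15 reached 1 TPM in both libraries, 7 reached 10 and 1 reached 100. Lipid enzymes used by many cells were among the highest, Scd1 at 129 and 115 and Fasn at 89.4 and 100.3, with Mgst1 between them by mean. Elovl3 stood between Fasn and Awat2 by mean. The gland's own Mc5r at 1.81 and 0.99 and Awat2 at 3.37 and 3.42 were near the low end of the list.

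Markers of other cell types were read as well, some at 100 TPM or more, and differed between the libraries. Fibroblast genes held 0.0642% ± 0.0152 of TPM (SD, n = 2), melanocyte genes 0.0538% ± 0.0141 and immune genes 0.0159% ± 0.00942. Fibroblast genes summed to 749 and 534, and 16 of the 18 were at least 1.5-fold higher in replicate 1, beside 5.49% of all genes at a mean of 1 TPM: Dcn stood at 123 and 75.02, Col3a1 at 75.8 and 28.1 and Col1a1 at 42.99 and 15.2. The other 2, Postn, which bulge cells also make, and Col5a1, were higher in replicate 2. Postn had the highest mean of the list, 259.8, and so weighs heavily in the fibroblast sums and share. Immune genes summed to 225 and 91.9, with 14 of the 16 members at a mean of 1 TPM at least 1.5-fold higher in replicate 1, Cd74 at 66.7 and 27.3 and Lyz2 at 26.6 and 5.41. Ptprc, which marks all leukocytes, was at 0.91 and 0.29. Melanocyte genes summed to 638 and 438, all 13 higher in replicate 1 (50.5% of all genes), Dct at 238 and 168, Tyrp1 at 146 and 97.6 and Pmel at 147 and 93.9. Of the members at a mean of 1 TPM, 18 fibroblast and 16 immune genes, 0 were 1.5-fold higher in replicate 2 (3.44% of all genes). At that share few or none would be looked for in lists of this size, so this absence adds nothing. Of the 9 endothelial and mural genes at a mean of 1 TPM, 6 were at least 1.5-fold higher in replicate 1, Acta2, the actin of smooth muscle, at 16.9 and 6.60 among them. In that list Mcam was highest at 59.8 and 55.9, with Pecam1 at 3.91 and 3.73 and Cdh5 at 0.67 and 0.54, and blood, muscle and fat genes summed to 29.0 and 10.8. The Merkel cell genes Atoh1 and Krt20 had 0 counts in both libraries. Epidermal differentiation genes moved the same way, 15 of 18 at a mean of 1 TPM being higher in replicate 1. The part of other cells in any level given above was not tested.

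**Figure D5:**
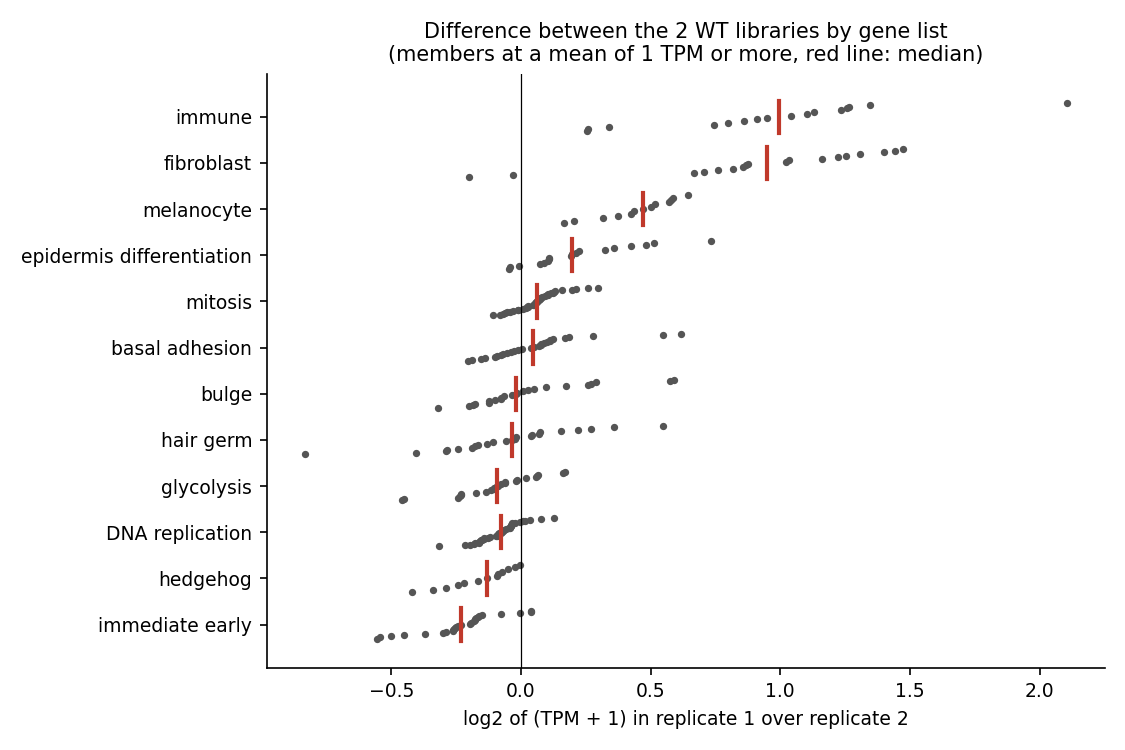
log2 of TPM + 1 in WT replicate 1 over replicate 2 for the members of 12 gene lists at a mean of 1 TPM or more, 1 point per gene and a red line at the median. Immune (median 0.996), fibroblast (0.95) and melanocyte (0.47) genes lie to the right, immediate early genes (-0.23) to the left, and hair germ (-0.04) and bulge (-0.02) genes around 0.

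Against the other 4 libraries, 40 of the 10686 features at 5 TPM or more in both WT libraries were under 0.5 TPM in all 4 (0.374%). They held 0.219% of TPM, 33 were pseudogenes and 3 protein-coding, and 35 matched a protein-coding relative, 25 of them at 97% identity or more. Rpl3-ps1 was highest at 687 and 663 in WT and at most 0.14 elsewhere. Its relative Rpl3 was read at 1554 and 1567 in the WT libraries, at 2307 and 2041 in the LEF1cKO libraries, and at 1776 and 1896 in those of LEF1_TCF7dKO. Pcna-ps2 stood at 92.8 and 90.7 in WT and at most 0.13 elsewhere. Its relative Pcna was read at 456 and 471 in WT, at 485 and 445 in the LEF1cKO libraries and at 237 and 291 in those of LEF1_TCF7dKO. In the WT libraries the copy held 15.3% and 14.5% of the counts of Pcna and copy together. No difference in Pcna between genotypes was tested. Gm7125 stood at 112 and 118 in WT and at most 0.02 elsewhere, while its relative Gm10282 was at 0 in both WT libraries and between 5.42 and 14.4 in the other 4. In the other direction, 2 of 10259 features (0.0195%) were under 0.5 TPM in both WT libraries and at 5 TPM or more in all 4 others. No gene of the follicle, signalling or cell cycle lists was among the 40. At a share of 0.374% few or none would be looked for there, so this absence says nothing about those lists. No source used here says whether the groups shared a strain background and 1 run of processing, and the part of either in these counts was not tested.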

How the data were processed

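RNA of sorted cells was made into libraries with an mRNA kit and sequenced as read pairs on an Illumina HiSeq, with RNA integrity numbers above 8, per the labels' protocols. The submitters' processing notes name Bowtie2 2.2.9, RSEM 1.2.30 and mm10, and which gene annotation was used is not given there. The expected counts are the RSEM estimates deposited by the authors, with reads shared between genes divided by its model. TPM, per the file headers, are RSEM values of the authors that divide by effective length and are scaled to 1 total per library; a deposited TPM table of the series held the same values. FPKM, also deposited by the authors per the file headers, were not used. Gene length minus effective length was 50 bases in 99.8% of genes, so that short features weigh heavily in TPM: those with an effective length under 100 bases held 3.43%. Another 92 spike-in rows had 0 counts and were left out.

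From these, levels, ranks, shares and replicate differences were computed in Python 3.11.15 with pandas 2.3.3. No test was run, and log2 values carry a pseudocount of 1 TPM. Of the listed genes 46005 (98.9%) matched GENCODE M21 by identifier, which gave biotypes, GRCm38 positions and transcripts. Relatives of pseudogenes were found with blastn of BLAST+ 2.17.0. The depth per library allows a gene with no reads up to 0.0567 and 0.0475 CPM (3 counts), by counting error only. Named genes were the 30 highest, the sort genes, and in each list up to 6 of the highest members and markers under 1 TPM; not every such gene is printed, and others were chosen after their values were seen. The members and the 36 gene lists were chosen with earlier results of these data known. The scripts were tested on simulated data.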

Additional observations from a re-analysis of the deposited data

How the results depend on the processing

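The number of genes at 1 TPM in both libraries stayed within 1.5 times of its value under all 7 alternatives run, from 12263 to 17877. Shares and medians depend on what TPM is scaled to. Over protein-coding genes only, the 100 highest genes held 30.3%, keratins 1.68%, ribosomal proteins 15.8% and mitochondrially encoded genes 5.57%, and the medians were 39.1 TPM for the hair germ list and 116 TPM for the mitosis list. Without mitochondrially encoded genes, the 100 highest held 29.1%, keratins 1.45% and ribosomal proteins 13.6%, and the mitosis median was 100.6 TPM. As a share of expected counts, which does not divide by length, the 100 highest held 18.4%, keratins 1.58%, ribosomal proteins 5.25% and mitochondrially encoded genes 2.49%. With pseudogenes added to their closest relative, an alternative chosen after seeing the data, these were 33.3%, 1.43%, 16.9% and 8.29%. Among genes with an effective length of 200 bases or more, the 100 highest held 29.97%. Leaving out each library in turn gave 30.6% to 30.9% for the 100 highest, 1.38% for keratins by either library, and hair germ medians of 31.7 TPM without replicate 2 and 34.2 TPM without replicate 1. The median absolute log2 ratio was 0.0275 in place of 0.0929 with no filter on low values, which adds genes near 0. Features read in WT alone numbered 18 at 0.1 TPM in place of 0.5, where fewer can pass. No paired analysis was possible because the results come from no test between groups. With 2 libraries, the spread of any gene rests on 1 difference.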

Other observations

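Hox genes, which record position along the body, were read from all 4 clusters. Of 39 listed, 23 reached 1 TPM in both libraries and 13 reached 10. Hoxb8 was highest at 61.01 and 68.7 TPM in replicates 1 and 2, above Hoxb6 at 53.9 and 56.5 TPM, and Hoxc13, a factor of hair and nail, stood at 39.2 and 39.9 TPM. Among RNAs annotated as long noncoding, Gm10076 was highest at 1402 and 1393 TPM, followed by Gas5, the host of small nucleolar RNAs, at 935 and 1018 TPM. Malat1 at 136 and 133 TPM and Neat1 at 119 and 102 TPM were lower. Others stood between Gas5 and Malat1, Gm26825 at 764 and 867 TPM among them. Gm10076 and Gm26825 were not searched for a protein-coding relative, so the part of shared reads in their levels was not tested.

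High coding genes outside the gene lists included, after Ptma, Apoe and Mt2, Mt1 at 2004 and 2022 TPM and Lgals7, an epithelial lectin, at 2244 and 2195 TPM. Ucp2, a mitochondrial carrier, stood at 1872 and 1678 TPM. The RNA-binding Hnrnpa2b1 was at 1768 and 1853 TPM and the histone variant gene H3f3a at 1783 and 1687 TPM. Clustered histone genes, many of whose messages lack poly(A) tails, had a median of 4.95 TPM in these mRNA libraries. Of 71, 15 reached 10 TPM in both libraries, and Hist1h2bc was highest at 106 and 124 TPM. The part of library preparation in these levels was not tested.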
